A study of Sus scrofa with 15 samples.

Results

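Messenger RNA of the genes that take up, sense and burn glucose was followed in the testes of young piglets on 5 diets. The genes were chosen by name from a list of 35 that runs from the glucose-responsive gene TXNIP and its regulators, through the glucose transporters and the steps of glycolysis, to lactate export and the pyruvate dehydrogenase complex. Of these, 31 were found by symbol among the 30476 genes of the count table, and all 31 passed the filter on low counts, as did 15634 genes in all. The symbols SLC2A1, SLC2A3, ALDOA and PKM were not found. ALDOA and PKM were present under their Ensembl identifiers alone (ENSSSCG00000032556 and ENSSSCG00000001930), were not counted among the 31, and passed the test in none of the 8 comparisons.

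Male piglets from Dutch Landrace Duroc sows suckled until postnatal day 2 and were then assigned to a diet until sacrifice on day 21, when the testes were frozen. The Sow group drank sow milk from a bowl, the Milk group a formula based on cow's milk, and the Soy group a formula based on soy. The M + E2 group received the cow's milk formula with 17beta-estradiol as a positive control for estrogen action, and the M + G group the same formula with genistein, the main soy isoflavone, at 84 mg/L (a concentration in the diet per the study's methods, in serum per the labels). Each group had 3 libraries, and all piglets had the same early suckling. Sow and Soy each had 1 library without a number in its name, called here Sow unnumbered and Soy unnumbered. The labels number the libraries but name no animals, so the p-values measure the spread between these libraries.

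Glycolysis splits glucose into pyruvate, which is either reduced to lactate and exported or passed into mitochondria by the pyruvate dehydrogenase complex. In the testis, Sertoli cells are known for converting glucose to lactate, which they hand to germ cells as fuel. When glucose phosphates accumulate in a cell, the transcription factor MondoA, encoded by MLXIP, enters the nucleus with its partner MLX and switches on TXNIP and ARRDC4. Both encode alpha-arrestins that restrain further glucose uptake. The pyruvate dehydrogenase kinases (PDK1 to PDK4) shut the pyruvate dehydrogenase complex, and PDK4 is known as the kinase that rises in fasting and when fat is burned.

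The libraries held from 6097552 to 9488579 counted reads (median 8198038). Levels are CPM (counts scaled to a common library size, with edgeR's TMM factors over the 15 libraries). Sow 2 stood apart: of the 105 pairs of libraries, 4 had a correlation below 0.9 across genes, and Sow 2 was in each of them. It was left out of the main comparisons, as the study's methods describe, and its values are given beside them. Testis markers were present in every library, for example CYP17A1 of Leydig cells at 3581 CPM or more and AMH of Sertoli cells at 287 CPM or more. Ribosomal protein transcripts took 6.10% to 8.97% of the counts in Sow and 2.69% to 6.27% in the formula groups, with Sow 2 the highest. In bulk tissue, fewer cells of a type and less RNA per cell cannot be told apart.

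Testis TXNIP was between 2.35-fold (Soy) and 2.62-fold (M + G) lower on the 4 formula diets than on sow milk by the fitted values, and the difference passed the test in M + E2 and M + G. With TXNIP, the pyruvate dehydrogenase subunit gene PDHB and the kinase gene PDK4 were lower in all 12 formula libraries than in both main Sow libraries. These were 9.68% of the members, beside 7.93% of all genes. In Sow 2, which was left out, PDK4 was within the range of the formula libraries. PDHB and PDK4 passed the test in M + E2. Of the glycolysis genes in M + E2, TPI1 alone passed the adjusted threshold, by less than 2-fold, and PFKFB3, HK1 and PFKM had positive differences that did not pass. No member was called in the 4 comparisons made between formula diets (each other formula with Milk, and Soy with M + E2).

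TXNIP (ENSSSCG00000031262, chr4:99348589-99351760 in Sscrofa11.1) encodes thioredoxin-interacting protein. In Sow it stood at 864 CPM in Sow unnumbered, 786 in Sow 3 and 536 in Sow 2. The values were 376.9, 393 and 263 CPM in Milk 1 to 3, and 393, 325 and 343 CPM in Soy unnumbered, Soy 2 and Soy 3. They were 388, 289 and 364 CPM in M + E2 1 to 3, and 323, 366 and 279 CPM in M + G 1 to 3. All 12 formula libraries, from 263 to 393 CPM, were below all 3 Sow libraries, Sow 2 included.

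The fitted log2 fold change of TXNIP from Sow was −1.32 ± 0.224 (SE) in M + E2 (adjusted p = 0.0305 by the quasi-likelihood test of edgeR) and −1.39 ± 0.224 in M + G (adjusted p = 0.0497). A gene was called when its adjusted p was at most 0.05 and it differed by 2-fold or more, and both values passed. The values were −1.30 ± 0.224 in Milk (adjusted p = 0.137) and −1.23 ± 0.224 in Soy (adjusted p = 0.286), which did not pass. These 4 comparisons share the Sow libraries, so the formulas are set against each other directly. Against Milk the log2 difference of TXNIP was −0.01 in M + E2 (95% interval −0.45 to 0.42), −0.09 in M + G (−0.52 to 0.35) and 0.07 in Soy (−0.37 to 0.51). With all 3 Sow libraries the log2 fold changes from Sow were −1.07 in M + E2 and −1.17 in M + G, both still called. They were −1.08 in Milk and −1.04 in Soy, both with adjusted p above the threshold (0.0722 and 0.0651). The study, which used edgeR's exact test, lists TXNIP as lower in Soy than in Sow.

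ARRDC4 (ENSSSCG00000002252, chr7:81656760-81669584), the alpha-arrestin that shares its regulator with TXNIP, had smaller differences. It stood at 47.9 CPM in Sow unnumbered, 37.3 in Sow 3 and 30.7 in Sow 2. It was at 36.2, 28.5 and 32.5 CPM in Milk 1 to 3, and at 37.1, 42.7 and 39.7 CPM in Soy unnumbered, Soy 2 and Soy 3. It was at 33.1, 31.2 and 26.3 CPM in M + E2 1 to 3, and at 28.1, 32.5 and 26.6 CPM in M + G 1 to 3. The estradiol, genistein and plain milk libraries lay below both main Sow libraries, and the Soy libraries overlapped them.

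No difference of ARRDC4 passed the adjusted threshold. Its log2 fold change from Sow was −0.57 ± 0.181 in M + E2 (adjusted p = 0.0612), −0.59 ± 0.181 in M + G (adjusted p = 0.131), −0.44 ± 0.181 in Milk (adjusted p = 0.395) and −0.11 ± 0.181 in Soy (adjusted p = 0.753). Counting Sow 2 as well, it was −0.36 in M + E2 and −0.41 in M + G, and the sign turned in Soy, to 0.04. Over the 14 libraries TXNIP and ARRDC4 levels on the log2 scale had a Pearson r of 0.56 (permutation p = 0.0362) and a Spearman rho of 0.499 (permutation p = 0.0727). Without the 2 libraries farthest from the median TXNIP level, which were both Sow, r was 0.178 over 12 libraries (permutation p = 0.575), and for deviations from the diet means it was 0.0976 (permutation p = 0.736). The relation rested on the Sow libraries.

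The regulator genes gave values in both directions. MLXIP, which encodes the glucose sensor MondoA itself, was at 20.6 and 23.8 CPM in the main Sow libraries and at 41.04 to 51.6 CPM in M + E2, with no overlap (log2 fold change 0.95 ± 0.352, adjusted p = 0.0846). MLX, the partner, was at 53.6 and 57.4 CPM in Sow and 40.2 to 46.3 CPM in M + E2 (−0.40 ± 0.208, adjusted p = 0.194). Neither was called in any of the 8 comparisons. MLXIP was called in M + E2 with Sow 2 kept (adjusted p = 0.0137).

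**Figure D1:**
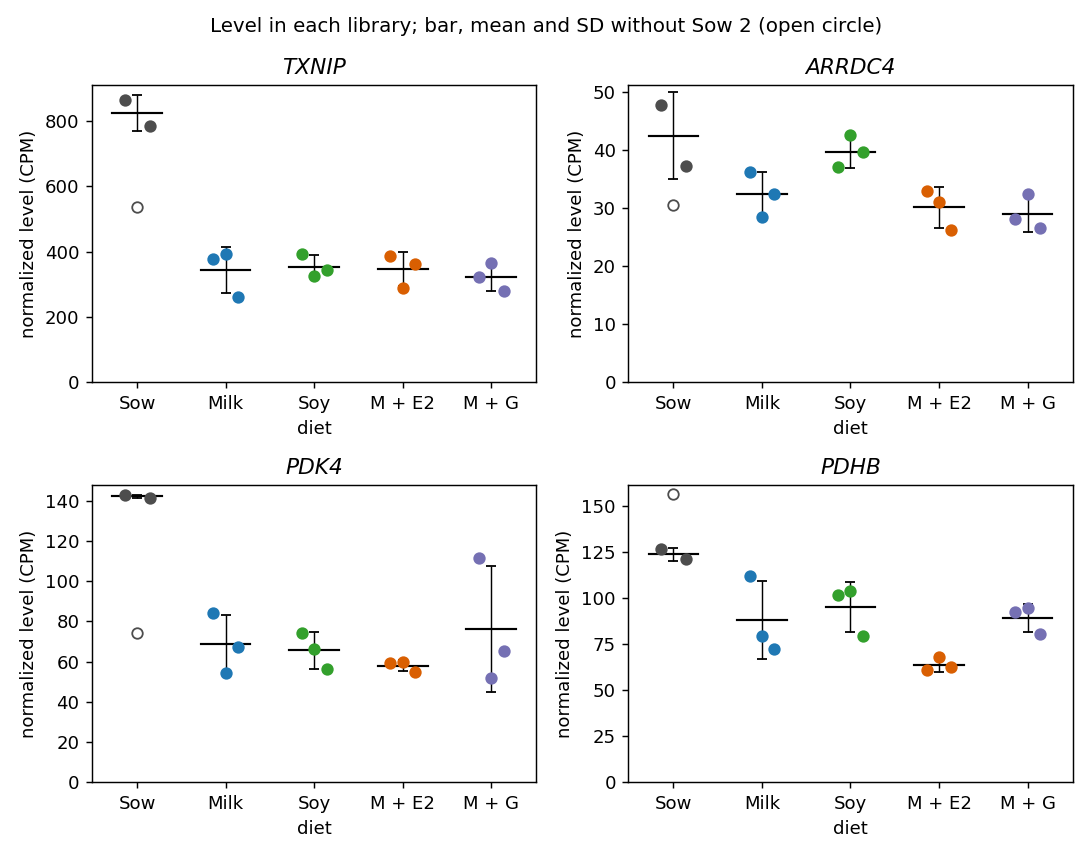
Level of TXNIP, ARRDC4, PDK4 and PDHB in each library, in CPM on a linear axis from 0, by diet. Points are libraries, the open circle is Sow 2, and the bar with its whiskers is the mean ± SD without Sow 2. TXNIP lies at 263 to 393 CPM in all 12 formula libraries and at 536 CPM or more in the 3 Sow libraries, and PDHB is lowest in M + E2.

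Further along the pathway, PDK4 and PDHB sit on opposite sides of the same switch, since the PDK4 kinase inactivates the complex that PDHB helps to form. PDK4 (ENSSSCG00000015334, chr9:75246956-75260134) stood at 143 CPM in Sow unnumbered, 141 in Sow 3 and 74.3 in Sow 2. It was at 84.0, 54.3 and 67.2 CPM in Milk 1 to 3, and at 74.3, 66.4 and 56.1 CPM in Soy unnumbered, Soy 2 and Soy 3. It was at 59.1, 59.7 and 54.8 CPM in M + E2 1 to 3, and at 112, 51.8 and 65.3 CPM in M + G 1 to 3. Sow 2 was thus within the range of the formula libraries for this gene, while the main Sow libraries were above all of them.

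PDK4 was called in M + E2 (log2 fold change from Sow −1.36 ± 0.273, adjusted p = 0.0356). It was −0.94 ± 0.273 in M + G (adjusted p = 0.124), −1.13 ± 0.273 in Soy (adjusted p = 0.32) and −1.09 ± 0.273 in Milk (adjusted p = 0.36). The M + E2 value with Sow 2 kept was −1.05 (adjusted p = 0.0144), still called. PDK4 is also in the study's list of genes lower in Soy than in Sow.

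PDHB (ENSSSCG00000025881, chr13:40161519-40167502) encodes the beta subunit of the enzyme that opens the route from pyruvate to acetyl-CoA. It stood at 127 CPM in Sow unnumbered, 122 in Sow 3 and 157 in Sow 2. It was at 112, 79.4 and 72.7 CPM in Milk 1 to 3, and at 102, 104 and 79.4 CPM in Soy unnumbered, Soy 2 and Soy 3. It was at 61.0, 68.1 and 62.4 CPM in M + E2 1 to 3, and at 92.7, 94.9 and 80.6 CPM in M + G 1 to 3. The 3 M + E2 libraries were the lowest of all 15.

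PDHB was called in M + E2 against Sow (−1.03 ± 0.198, adjusted p = 0.0355; −1.08 with all 3 Sow libraries, adjusted p = 0.00606). Under scaling by library totals its value was −0.72, under the 2-fold limit. Against Milk the M + E2 difference was −0.49 ± 0.18 (adjusted p = 0.223), and Soy was above M + E2 by 0.63 ± 0.18 (adjusted p = 0.183), neither past the threshold. The other subunit gene, PDHA1, differed from Sow by −0.41 ± 0.189 in M + E2 (adjusted p = 0.15). Of the other kinases, PDK1 was at −0.66 ± 0.229 (adjusted p = 0.0715) and PDK3 at 0.60 ± 0.213 (adjusted p = 0.0769) in M + E2, with no overlap between the groups for either, and PDK2 was at 0.11 ± 0.208.

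In the whole list, 3 of 31 members were called in M + E2 against Sow, all lower (TXNIP, PDK4 and PDHB), beside 5.0% of all genes tested (3.56% lower). At an adjusted p of 0.05 without the fold limit TPI1 joined them, beside 7.97% of all genes. The groups did not overlap for 8 members that were higher and 14 that were lower, beside 33.6% and 28.6% of all genes and 62.3% in either direction, and the median log2 fold change of the members was −0.01, beside 0.01 for all genes. In M + G against Sow 1 member was called, TXNIP, beside 0.0576% of all genes (0.0384% lower), and 8 members were higher and 9 lower without overlap, beside 27.5% and 26.4% of all genes and 53.9% in either direction. In Soy no member was called (0.0128% of all genes) and 8 did not overlap (37.3% of all genes). In Milk no member was called (0.0192%) and 8 did not overlap (31%). The counts of members at an unadjusted p under 0.05 in these 4 comparisons were 16, 7, 6 and 6, beside 33.8%, 23.6%, 15% and 12.1% of all genes. DESeq2's Wald test called 4, 1, 1 and 1 of the members and 1376, 343, 34 and 30 of all genes, and edgeR's exact test 5, 1, 2 and 0 of the members and 1887, 955, 54 and 18 of all genes. With all 3 Sow libraries 8 members were called in M + E2, beside 18.1% of all genes, and 2 in M + G, TXNIP and HK1, beside 10.3%.

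The members lower than both main Sow libraries in all 12 formula libraries were TXNIP, PDHB and PDK4, which is 9.68% of the members, beside 7.93% of all genes. With Sow 2 counted as well, TXNIP and PDHB remained, 6.45% beside 7.57%. The members higher in all 12 were SLC2A4 and PFKP (6.45% beside 6.84%), and PFKP remained with Sow 2. These shares of the members lay near those of all genes.

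The calls depended on single libraries more than the fold changes did. When each of the 14 libraries was left out in turn, the number called in M + E2 ranged from 0 to 4, and that of all genes from 2 to 1533. It was 0 without Sow unnumbered, Sow 3, Soy 2 or any of the 3 M + E2 libraries, and 1 (TXNIP) without M + G 3, while the log2 fold change of TXNIP stayed between −1.42 and −1.20. In M + G it was 0 without 10 of the 14 libraries (all but Milk 2, Milk 3, Soy unnumbered and Soy 3), with TXNIP between −1.49 and −1.29 and from 1 to 70 of all genes called. In those fits without a Sow library, the single one left was assumed to vary like the other groups.

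**Figure D2:**
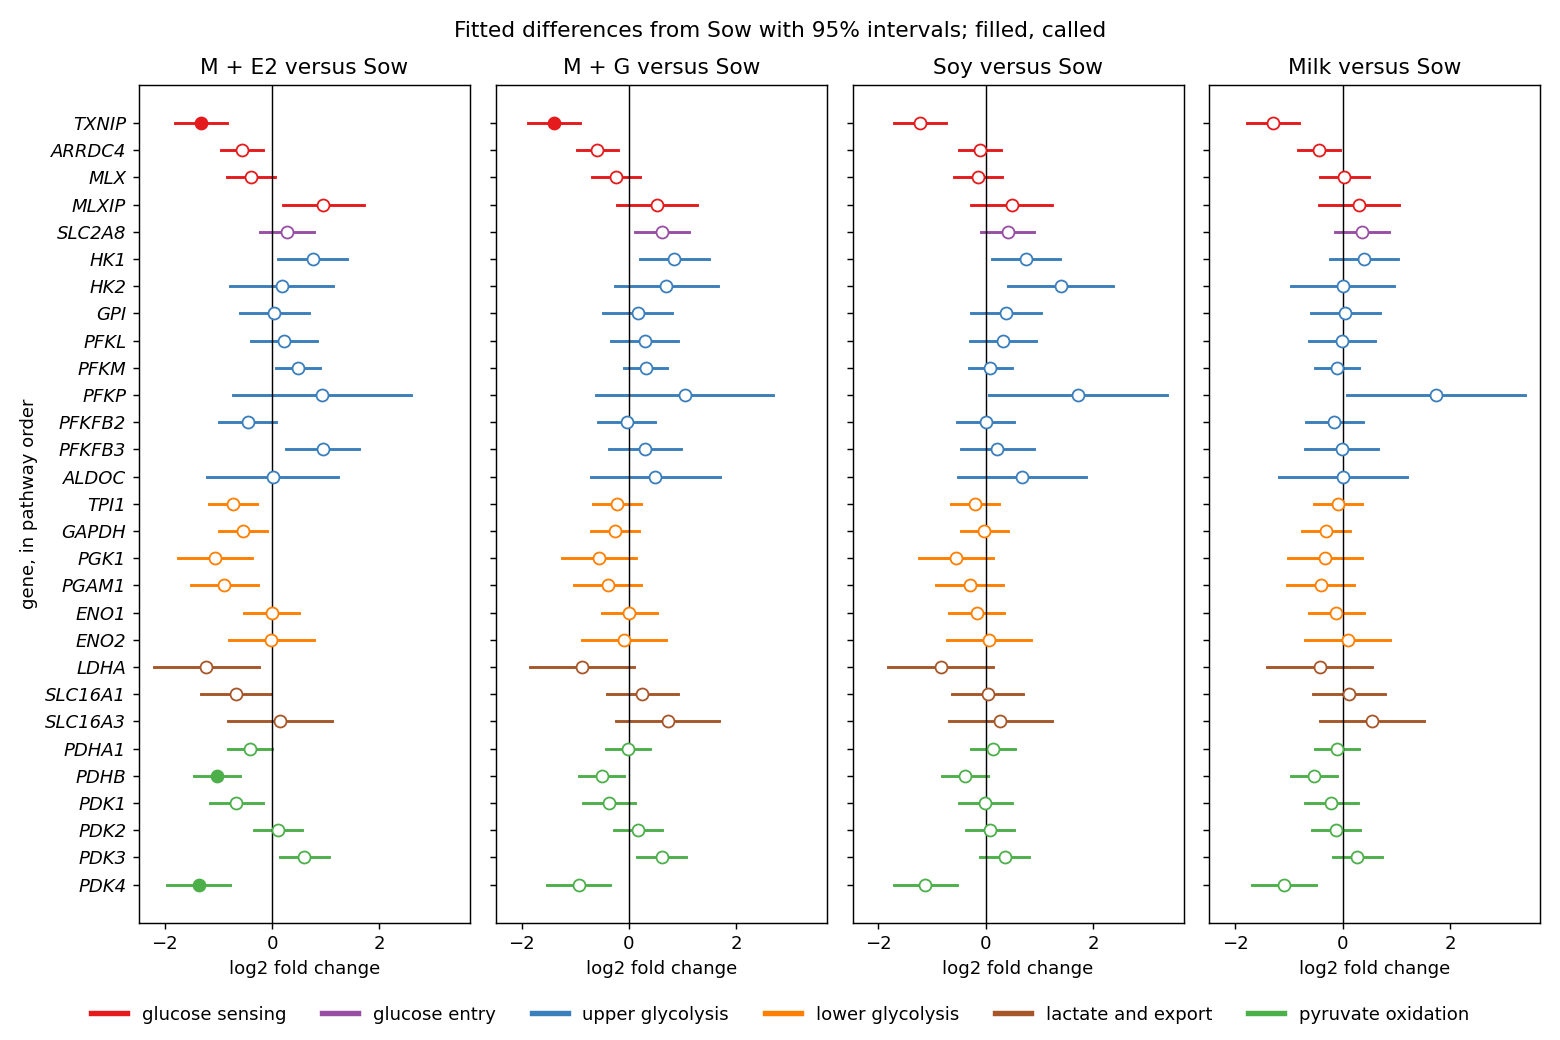
Fitted log2 fold change from Sow (horizontal axis) with its 95% interval for 29 members, in pathway order and coloured by role, in M + E2, M + G, Soy and Milk. Filled points were called, which are TXNIP, PDHB and PDK4 in M + E2 and TXNIP in M + G. SLC2A4 and LDHB are left out because their counts in the main Sow libraries are 3 or fewer. In M + E2 the genes from TPI1 to PGAM1 lie left of 0, and HK1, PFKM and PFKFB3 right of it.

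The upper and lower steps of glycolysis had median values of opposite sign in M + E2, and also in M + G and Soy. The upper steps, which trap glucose and spend ATP up to fructose bisphosphate and its cleavage, had 8 of 9 genes above Sow in M + E2, with a median log2 fold change of 0.23. The lower steps, which recover ATP on the way to pyruvate, had 6 of 6 members below Sow, with a median of −0.63, although ENO1 and ENO2 were both at −0.01. PKM, the pyruvate kinase gene of the last step, was not counted because it was found by identifier only, and it was higher without overlap, at 578 to 608 CPM in M + E2 beside 485 and 451 CPM in the main Sow libraries (0.29 ± 0.19, adjusted p = 0.3). At an unadjusted p under 0.05 there were 3 of the upper genes, all higher, and 4 of the lower genes, all lower, beside 33.8% of all genes in either direction, and none was called. Under scaling by library totals, which moved the median of all genes to 0.31, the medians were 0.53 and −0.33, with 4 of 6 lower genes below Sow. The medians with Sow 2 kept were 0.46 and −0.59, again with 4 of 6 below. The split was not particular to M + E2. In M + G, 8 of 9 upper genes were above Sow (median 0.31) and 5 of 6 lower genes below it (median −0.24). The counts in Soy were the same, with medians of 0.38 and −0.19. In Milk they were 5 of 9 (median 0.001) and 5 of 6 (median −0.21).

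Among the upper genes, PFKFB3 encodes the enzyme that makes fructose 2,6-bisphosphate, the strongest activator of phosphofructokinase. Its level was 38.9 CPM in Sow unnumbered, 37.7 in Sow 3 and 25.8 in Sow 2. It was 34.9, 24.9 and 56.9 CPM in Milk 1 to 3, and 31.4, 46.7 and 55.95 CPM in Soy unnumbered, Soy 2 and Soy 3. It was 72.7, 83.6 and 74.9 CPM in M + E2 1 to 3, and 51.5, 36.3 and 57.4 CPM in M + G 1 to 3. The 3 M + E2 libraries were the highest of all 15.

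The log2 difference of PFKFB3 in M + E2 was 0.94 ± 0.319 from Sow (adjusted p = 0.0691) and 0.96 ± 0.279 from Milk (adjusted p = 0.191). It was called against Sow with all 3 Sow libraries (1.17, adjusted p = 0.0104). Against Milk it was called without Milk 3 (1.33, adjusted p = 0.0195), as were 1256 of all genes. HK1, the hexokinase of most tissues, was 0.76 ± 0.296 above Sow in M + E2 (adjusted p = 0.0983), 0.85 ± 0.297 in M + G (adjusted p = 0.142) and 0.75 ± 0.296 in Soy (adjusted p = 0.322). The muscle phosphofructokinase gene PFKM was 0.48 ± 0.188 above Sow in M + E2 (adjusted p = 0.0986) and 0.59 ± 0.167 above Milk (adjusted p = 0.191).

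HK2, the inducible hexokinase, was highest in 2 Soy libraries. Its level was 16.7, 45.5 and 34.1 CPM in Soy unnumbered, Soy 2 and Soy 3. It was 9.69 CPM in Sow unnumbered, 14.6 in Sow 3 and 9.20 in Sow 2, and 10.6, 7.69 and 19.2 CPM in Milk 1 to 3. It was 16.8, 13.9 and 12.7 CPM in M + E2 1 to 3, and 24.6, 12.2 and 23.8 CPM in M + G 1 to 3. Soy lay above Sow without overlap, but Soy unnumbered was within the range of the other formula groups.

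HK2 in Soy differed by 1.39 ± 0.452 from Sow (adjusted p = 0.32), by 1.39 ± 0.393 from Milk (adjusted p = 0.999, unadjusted p = 0.00347) and by 1.21 ± 0.39 from M + E2 (adjusted p = 0.22). None passed the threshold in this test. edgeR's exact test called the difference of Soy from M + E2, as it did for 203 of all genes.

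PFKP, the platelet phosphofructokinase, was carried by single libraries. It was at 2.82 CPM in Sow unnumbered, 4.55 in Sow 3 and 3.94 in Sow 2, and at 4.88, 25.8 and 7.72 CPM in Milk 1 to 3. It was at 5.26, 5.92 and 25.3 CPM in Soy unnumbered, Soy 2 and Soy 3, at 7.95, 7.80 and 6.50 CPM in M + E2 1 to 3, and at 7.32, 10.98 and 5.01 CPM in M + G 1 to 3. Every formula library was above all 3 Sow libraries, with Milk 2 and Soy 3 far above the rest.

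The log2 fold change of PFKP from Sow was 1.74 ± 0.771 in Milk (adjusted p = 0.403) and 1.71 ± 0.77 in Soy (adjusted p = 0.327). Without Milk 2 the value in Milk was 0.74, and without Soy 3 the value in Soy was 0.58. The summed level of 5 peritubular myoid markers was also highest in these libraries, at 3244 CPM in Milk 2 and 4016 CPM in Soy 3, beside 284 to 638 CPM in Sow. Its part in the PFKP values was not tested.

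ALDOC, a minor aldolase of brain, was near the counting limit, with 10, 10 and 5 reads in Sow unnumbered, Sow 2 and Sow 3, 4, 9 and 10 in Milk 1 to 3, and 8, 16 and 16 in Soy unnumbered, Soy 2 and Soy 3. It had 5, 7 and 13 reads in M + E2 1 to 3 and 17, 6 and 13 in M + G 1 to 3, and the diets overlapped. SLC2A4, the insulin-dependent glucose transporter, had 3 reads each in Sow unnumbered and Sow 3 and 6 in Sow 2. It had 12, 20 and 8 reads in Milk 1 to 3, 8, 5 and 31 in Soy unnumbered, Soy 2 and Soy 3, 3, 8 and 11 in M + E2 1 to 3, and 7, 18 and 12 in M + G 1 to 3. From the 6 reads of the main Sow libraries, the ratio to Sow of scaled reads was 4.60 in Milk (95% counting interval 1.94 to 13.3), 4.54 in Soy (1.93 to 13.03), 3.69 in M + G (1.55 to 10.7) and 2.40 in M + E2 (0.943 to 7.23). These intervals cover counting error only, and SLC2A4 was called in no comparison.

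Of the lower genes, PGK1, which makes the first ATP of the pathway, stood lower in M + E2 without overlap (−1.06 ± 0.319 from Sow, adjusted p = 0.0546). The mutase gene PGAM1 was at −0.89 ± 0.288 (adjusted p = 0.0623), and the triose phosphate isomerase gene TPI1 at −0.73 ± 0.206 (adjusted p = 0.049), past the adjusted threshold but under 2-fold. GAPDH was at −0.54 ± 0.205 (adjusted p = 0.0906). The SEs of the enolase genes ENO1 and ENO2 were 0.237 and 0.365. The lactate dehydrogenase gene LDHA was at −1.22 ± 0.454 (adjusted p = 0.0854) and the lactate transporter gene SLC16A1 at −0.67 ± 0.305 (adjusted p = 0.138).

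Lactate-producing genes varied widely within diets. LDHA, which turns pyruvate into lactate, was at 169 CPM in Sow unnumbered but 73.9 in Sow 3, and at 27.7 CPM in M + E2 1 beside 71.1 and 65.3 in the other M + E2 libraries. With all 3 Sow libraries PGK1 (−1.32), PGAM1 (−1.01) and LDHA (−1.41) were called in M + E2. LDHB, the heart-type subunit, had 11 reads in M + E2 2, 13 in M + G 2, 3 in Milk 1, and 1 each in Milk 2 and M + E2 3. It had none in the other 10 libraries, where 0 reads allow up to 3, and no fold is given: the fitted changes that placed LDHB among the genes described library by library rest on groups at or near 0. The symbol LDHB matches 2 RefSeq loci, and genes of this pathway often have near-identical copies, so short reads could have been split between them.

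**Figure D3:**
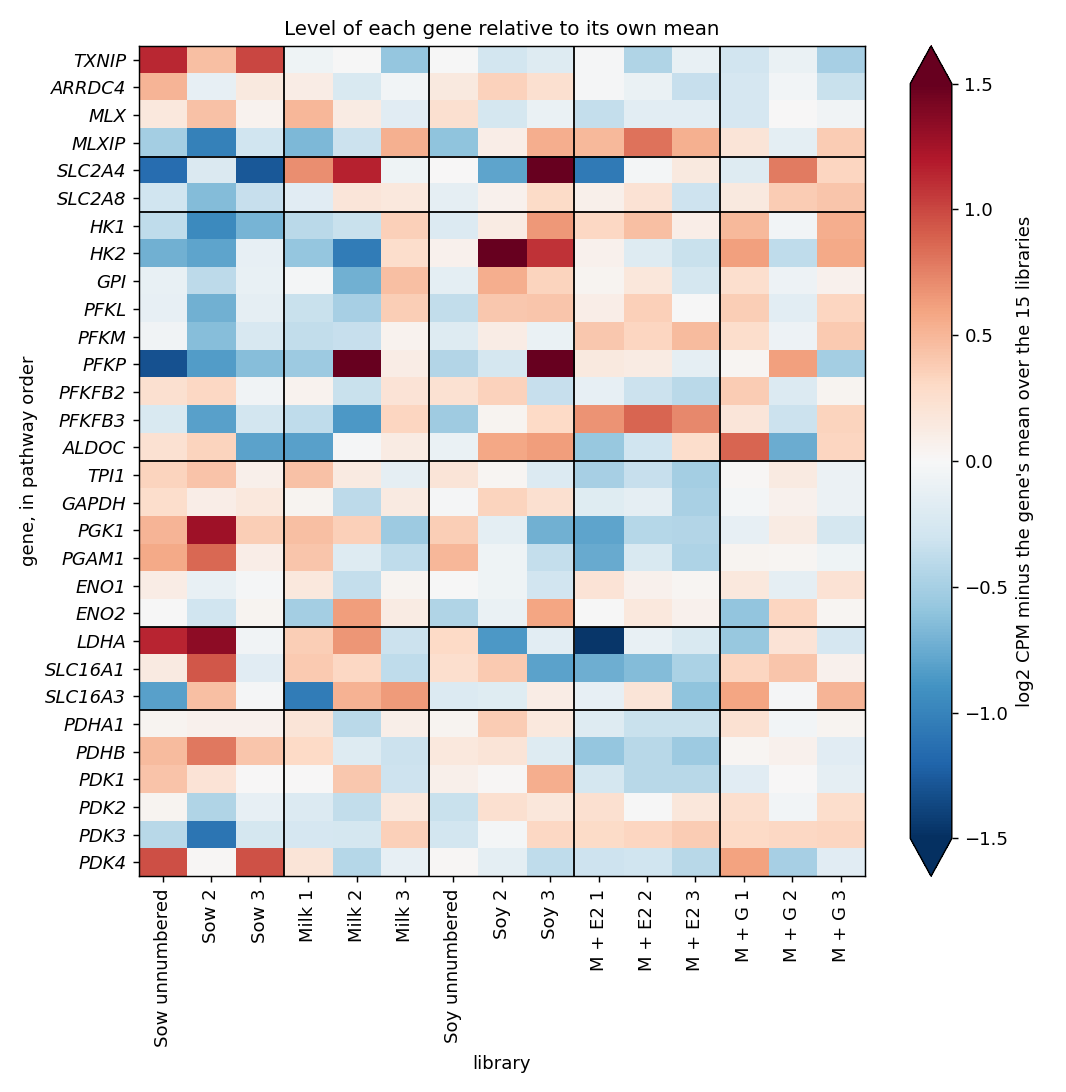
Level of 30 members (rows, in pathway order) in the 15 libraries (columns, by diet), as log2 CPM minus the gene's mean over the libraries, with red above and blue below the mean. The TXNIP row is clearly red in the 3 Sow libraries alone, PFKFB3 is highest in the 3 M + E2 libraries, and HK2 is highest in Soy 2. LDHB is left out because most of its counts are 0.

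Among the formulas, no member was called in M + E2, M + G or Soy against Milk by edgeR's quasi-likelihood test, DESeq2's Wald test or edgeR's exact test. By the quasi-likelihood test alone, the share of all genes called was 0.00% in each of these comparisons. For DESeq2's test and the exact test that share is not given here, so their result covers the members only. The study, which used the exact test, reports genes that differed between M + E2 and Milk. At an unadjusted p under 0.05 there were 8 members in M + E2 (17.7% of all genes), 1 in M + G (2.60%) and 1 in Soy (2.44%). The 8 in M + E2 were PFKFB3, PFKM, TPI1, PGK1, SLC16A1, PDHB, PDK1 and MLX, the first 2 higher with estradiol and the other 6 lower. The smallest adjusted p was 0.191.

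Soy and estradiol formula were also set against each other. No member was called (0.147% of all genes were), 11 had an unadjusted p under 0.05 (13% of all genes), and 9 did not overlap (20.6% of all genes). Of the 11, 9 were higher in Soy and 2 lower. They included the pyruvate dehydrogenase genes PDHB (0.63) and PDHA1 (0.55 ± 0.171, adjusted p = 0.208) and PDK1 (0.66 ± 0.207, adjusted p = 0.209), each without overlap, and the glycolytic genes TPI1 (0.52), GAPDH (0.51) and PGAM1 (0.59). ARRDC4 was 0.46 ± 0.164 higher in Soy (adjusted p = 0.266). PFKFB3 (−0.73) and PFKM (−0.40) were the lower ones. One test across all 5 diets passed for no member (smallest adjusted p 0.0941, for TXNIP, beside 0.0640% of all genes passing), with 9 members at an unadjusted p under 0.05 (18.1% of all genes) and 6 passing DESeq2's likelihood ratio test, as did 1064 of all genes. With all 3 Sow libraries TXNIP and PDHB passed it, among 1168 of 15328 genes.

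Many members moved with the level of ribosomal protein transcripts, here the mean log2 CPM of 53 such genes. Over 14 libraries and 31 relations, 7 members had a positive and 10 a negative correlation at an adjusted permutation p of 0.05 or less. PGK1 had r = 0.912 (rho = 0.873, adjusted p = 0.000465), LDHA r = 0.781 (rho = 0.815, adjusted p = 0.0015) and TXNIP r = 0.717 (rho = 0.758, adjusted p = 0.0015). HK1 had r = −0.916 (rho = −0.846, adjusted p = 0.000465) and PFKL r = −0.886 (rho = −0.824, adjusted p = 0.0015). The positive members were PGK1, PGAM1, TPI1, LDHA, PDHB, MLX and TXNIP, and the negative ones were HK1, HK2, GPI, PFKL, PFKM, PFKFB3, MLXIP, PDK2, PDK3 and SLC2A8.

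These relations were also common among all genes, of which 17.5% had r above 0.7 and 16.7% below −0.7, beside 5 and 8 of the 31 members. Without the 2 libraries farthest from the median, both Sow, r was 0.882 for PGK1, −0.91 for HK1 and 0.638 for TXNIP. All 17 members kept their sign as deviations from the diet means, with r of 0.952 for PGK1, −0.861 for HK1 and 0.709 for TXNIP. The ribosomal level left a gap between 9 libraries at 9.32 or lower and 5 at 9.77 or higher. The 5 were Sow unnumbered, Sow 3, Milk 1, Milk 2 and Soy unnumbered. Every M + E2 and M + G library was thus among the 9, and no Sow library was. Within the 9, 15 of the 17 kept their sign, and r was 0.625 for PGK1, −0.714 for HK1 and 0.334 for TXNIP. PDK4 and ARRDC4 did not pass (r = 0.467 and 0.263).

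With the ribosomal level as a covariate, the log2 fold change of TXNIP from Sow was −1.01 in M + E2 (adjusted p = 0.11), −1.11 in M + G (adjusted p = 0.0912), −1.16 in Milk (adjusted p = 0.036, called) and −0.96 in Soy (adjusted p = 0.528). PDHB in M + E2 was then −0.79 and PDK4 −1.34, neither called, and HK2 in Soy against M + E2 was called at 1.22 (adjusted p = 0.0127). Of all genes, 3 were called in M + E2 against Sow in this fit, 1 in M + G, 0 in Soy, 9 in Milk and 142 in Soy against M + E2.

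**Figure D4:**
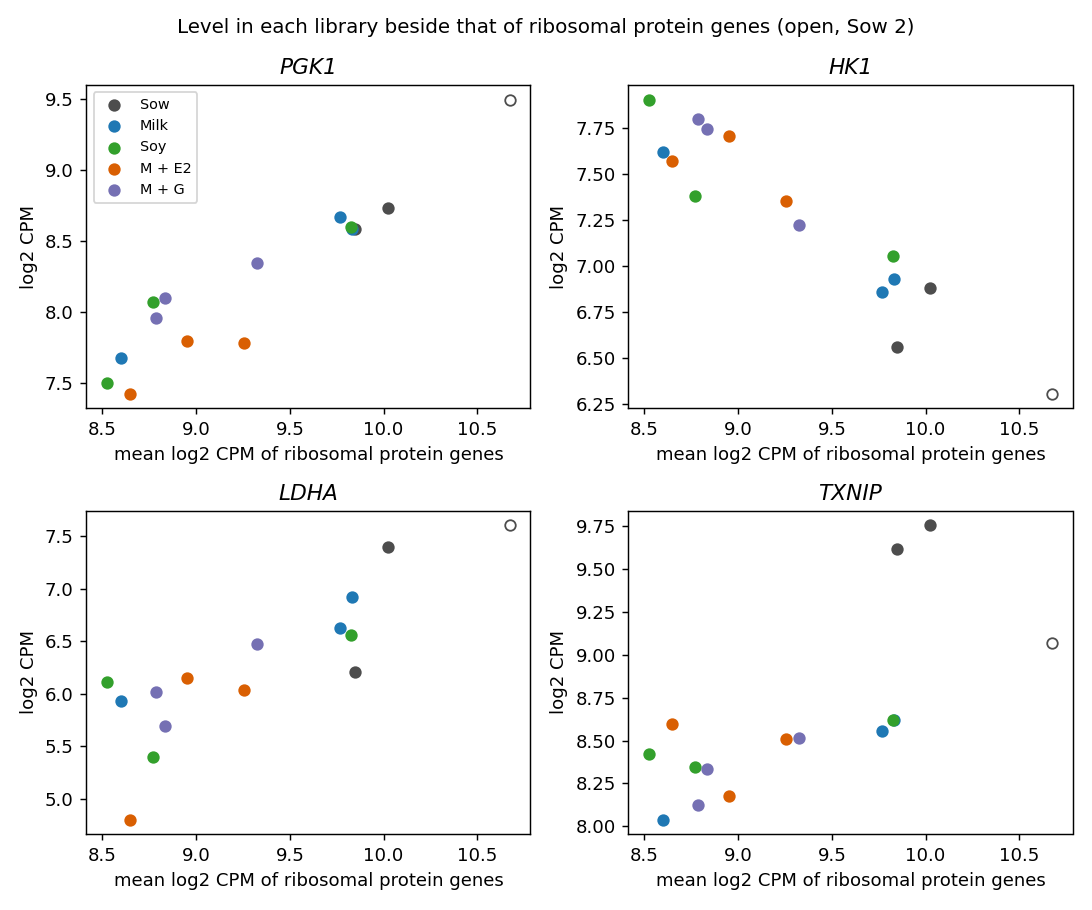
Level (log2 CPM) of PGK1, HK1, LDHA and TXNIP in each library against the mean log2 CPM of 53 ribosomal protein genes, coloured by diet, with Sow 2 open. PGK1 and LDHA rise and HK1 falls along the axis, with r of 0.912, 0.781 and −0.916 over 14 libraries. TXNIP is highest in the 3 Sow libraries, which all have a higher ribosomal level than any formula library. The level is 10.02 in Sow unnumbered, 10.68 in Sow 2 and 9.849 in Sow 3, beside 9.831 in Milk 2, the highest formula library.

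In neighbouring pathways the calls were in M + E2 against Sow and lower, where 5.0% of all genes were called and 3.56% were called lower. In the list of alpha-arrestins and sensing genes 1 of 16 tested was called, ARRDC3, an alpha-arrestin known for restraining beta-adrenergic receptors. It was at 153 CPM in Sow unnumbered, 233 in Sow 3 and 131 in Sow 2. The formula libraries ranged from 33.4 CPM in M + E2 2 to 137 CPM in M + G 1, and all were below both main Sow libraries. Its log2 fold change was −1.68 in M + E2 (adjusted p = 0.0406), −1.46 in Soy, −1.497 in Milk and −1.13 in M + G, the last 3 with adjusted p of 0.149 or more. The study, by the exact test, also lists ARRDC3 as lower in Soy than in Sow.

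Pyruvate entry into mitochondria gave 1 of 10 tested, PDHX, a binding subunit of the pyruvate dehydrogenase complex. PDHX was at 62.0 and 49.6 CPM in the main Sow libraries and 23.9 to 29.3 CPM in M + E2 (−1.12, adjusted p = 0.0374). Glycogen metabolism gave 2 of 12, GBE1, the branching enzyme (−1.22, adjusted p = 0.0277), and UGP2, which makes UDP-glucose (−1.38, adjusted p = 0.0471). The other genes of glycolysis and gluconeogenesis gave 1 of 29, FBP2, a fructose bisphosphatase (−2.23, adjusted p = 0.0471). The pentose phosphate pathway gave 0 of 6 and the hypoxia response genes 0 of 21. At an unadjusted p under 0.05 there were 2 and 5, beside 33.8% of all genes. Each of these lists had 1 lower gene past the adjusted threshold but under 2-fold (adjusted p = 0.0343 and 0.0484), beside 7.97% of all genes.

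**Figure D5:**
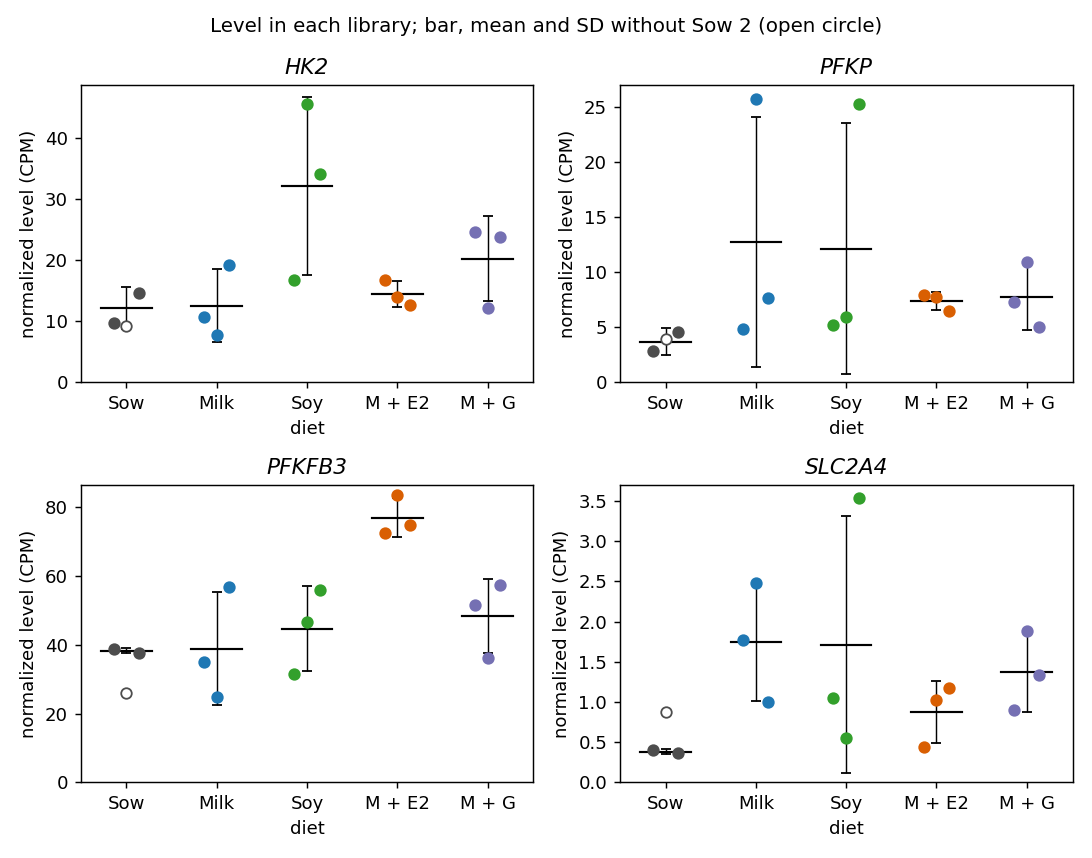
Level of HK2, PFKP, PFKFB3 and SLC2A4 in each library, in CPM on a linear axis from 0, by diet. Points are libraries, the open circle is Sow 2, and the bar with its whiskers is the mean ± SD without Sow 2. PFKFB3 is highest in the 3 M + E2 libraries (72.7 to 83.6 CPM), HK2 in Soy 2 and Soy 3, and PFKP in Milk 2 and Soy 3.

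Markers of other cell types moved with the diets. The summed level of 5 endothelial markers was 239 to 377 CPM in Sow and at least 380 CPM in every formula library, the reverse of TXNIP. That of 5 Leydig markers was 13184 to 14110 CPM in M + E2 and 19377 to 20083 CPM in Sow. For 9 Sertoli markers it was 3939 to 4362 CPM in M + E2, above the 3743 and 3745 CPM of the main Sow libraries. Sow 2 was at 4860 CPM. Against the main Sow libraries 6 of the Sertoli markers were higher and 1 lower without overlap (77.8%, beside 62.3% of all genes). None was called. Markers of rete or epididymal epithelium summed to 51.9 to 87.9 CPM in M + E2 and 164 to 203 CPM in Sow (3 genes), without overlap. KRT8 made up most of this sum, at 50.7 CPM or more, beside at most 21.6 CPM for EPCAM and 18.8 CPM for KRT18. All 3 genes had a negative fitted change, but only 1 had no overlap (33.3%, beside 62.3% of all genes), and none was called. Germ cell markers summed to 222 to 284 CPM in M + E2 and 164 to 187 CPM in Sow (5 genes), also without overlap. That sum was mostly KIT, which reached 240 CPM, beside at most 19.1 CPM for DDX4, MAEL, TDRD1 or UCHL1. Taken singly, 2 of these markers had a positive fitted change in this comparison and 3 a negative one. The median of these changes was −0.53, and none was called. The summed skeletal muscle markers reached 92.1 CPM at most. The part of these shifts in the values of TXNIP, PDHB, PDK4 and PFKFB3 was not tested.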

How the data were processed

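RNA of 15 piglet testis libraries was sequenced in short single-end reads, and the values used are raw read counts per gene that the authors deposited in 1 table of all libraries. Per the study's methods, low-quality bases were trimmed, and CLC Genomics Workbench mapped reads to a curated pig gene library and then placed unmatched reads on build 11.1 of the pig genome (Ensembl). How reads matching several places were counted is not given in the sources used here. No column of the table was left unused (0).

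Counts were fitted with edgeR 4.0.16 in R 4.3.3 by its quasi-likelihood test, with TMM scaling, a filter at a minimum count of 10 and 1 fit of the 5 groups without Sow 2, on 15634 genes (15328 with it). Adjusted p-values are Benjamini-Hochberg values over all genes tested. For correlations, CPM were put on the log2 scale (prior count 1), and p came from 100000 two-sided permutations. A count of 0 allows 3 reads, and counting intervals cover counting error only. Gene positions come from RefSeq for Sscrofa11.1. The script was tested on simulated data.

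The members and gene lists were chosen with earlier results of these data known. The 10 members described library by library were, by rule, TXNIP, ARRDC4, every member called or passing the test across diets, and the 3 with the largest fitted change in each of the 8 comparisons. The others were named for their place in the pathway. Same-numbered libraries of Milk and M + G had deviations from their group means that correlated at 0.231, 0.493 and 0.413. In the other pairs of groups examined these correlations ran from −0.473 to 0.191. Whether the numbers mark a pairing was not tested, and the labels name no animals. Alternatives were other scalings, filters, DESeq2 1.42.0, edgeR's exact test, single libraries left out and, added after the data were seen, library totals as scaling, exchanges of Sow 2, a block within Milk and M + G, and a ribosomal covariate.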

Additional observations from a re-analysis of the deposited data

How the results depend on the processing

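Members called in M + E2 against Sow numbered 3, but 8 with all 3 Sow libraries (2767 of all genes), 5 in a fit of only the groups compared (1846), 5 by edgeR's exact test (1887), 0 with the ribosomal covariate (3), 9 where Sow 2 replaced Sow unnumbered (2891) or Sow 3 (3324), and 0 to 4 when a library was left out (2 to 1533). In M + G against Sow the 1 member became 2 with all 3 Sow libraries (1585 of all genes) and 0 with the covariate. It was 0 when 10 counts were required in every library and 2 or 3 with Sow 2 exchanged. For these last settings the number of all genes called is not given here. When a formula library was left out it was 0 to 1. In Soy against Sow the 0 became 1 by DESeq2 and 2 by the exact test, and in Milk against Sow 1 by DESeq2 and 1 with the covariate. In Soy against M + E2 it became 1 by the exact test and 1 with the covariate. In M + E2 against Milk it was 0 to 2 when a library was left out, with 2 (MLXIP, PFKFB3) without Milk 3, where 1256 of all genes were called. Across the 5 diets the 0 became 2 with all 3 Sow libraries (1168 of all genes) and 6 by DESeq2's likelihood ratio test. With no filter it was 1, and the number of all genes is not given here. When a formula library was left out it was 0 to 5, with 5 without Milk 3, where 1042 of all genes passed.

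The correlation of TXNIP with ARRDC4 was 0.502 over 15 libraries and 0.0976 as deviations. ARRDC4 in Soy against Sow turned positive with all 3 Sow libraries (0.0438) and with Sow 2 exchanged (0.236 and 0.0182), and ranged from −0.295 to 0.106 when a library was left out. PFKP in M + G against Milk ranged from −1.08 to 0.300 (without Milk 2), and SLC2A4 in Soy against M + E2 from −0.130 (without Soy 3) to 1.42. The causes were not tested. With a replicate block, 0 members were called in M + E2, M + G or Soy against Milk and in Soy against M + E2, so the block changed no call of a member. The number of all genes called with the block is not given here. Groups with Sow could not be blocked, since Sow keeps 1 numbered library.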
